A study of Arabidopsis thaliana with 9 samples.

Results

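The SZF and ZAT stress zinc finger genes are a group of 8 Arabidopsis thaliana genes, which were followed here across all 9 libraries of an RNA sequencing series on strigolactones, the plant hormones that restrain shoot branching. The 8 genes were chosen by locus ID, with their counts in these same libraries already known to be lower in both strigolactone lines than in the wild type. They are 8 of the 27814 gene rows of the deposited count table, and all 8 were among the 21425 rows left after a filter on low counts. They comprise SZF1 (AT3G55980) and SZF2 (AT2G40140) of the tandem CCCH class, and ZAT10 (AT1G27730), ZAT12 (AT5G59820), ZAT6 (AT5G04340), ZAT11 (AT2G37430), AZF1 (AT5G67450) and AZF2 (AT3G19580) of the C2H2 class.

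Seedlings were sampled whole in 3 groups of 3 libraries. AtCXE15-OE is a transgenic line that overexpresses AtCXE15, a carboxylesterase that breaks strigolactones down, atd14-1 carries a mutation in D14, whose product is the strigolactone receptor, and Col-0 is the wild type. All groups were left untreated and grew at 22 °C with 16 h of light and 8 h of dark; their stated age was 8 days in one label field (characteristics) and 10 days in another (extraction). The promoter of the transgene, the number of independent lines, the number of plants per library and the hour of harvest are unknown from the labels. Handling and genotype cannot be told apart, and p-values measure the spread between libraries, which may be technical.

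Genes for zinc finger proteins of these classes respond early to stress. C2H2 proteins of the ZAT and AZF kind bind DNA through fingers that each carry the plant signature QALGGH, and many hold an EAR motif, a short stretch that recruits corepressors, so that most act as transcriptional repressors. Tandem CCCH proteins carry a pair of CCCH fingers, have been linked to the turnover of messenger RNA, and SZF1 and SZF2 restrain the response of Arabidopsis to salt. Transcripts of both classes are known to accumulate within minutes after wounding, touch, cold, salt or oxidative stress and to decay soon after.

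Levels are CPM, each library's counts scaled by its total and its TMM composition factor. Library totals were 37724263 to 54421069 counts, and a count of 3, taken as the floor, stood for 0.0551 to 0.0795 CPM, a limit for counting error alone. The genes that define the lines followed their labels: CXE15 was at 822 ± 123 CPM in AtCXE15-OE, 3.04 ± 0.08 CPM in atd14-1 and 3.94 ± 0.193 CPM in Col-0, and D14 at 44.5 ± 0.974, 6.74 ± 0.226 and 45 ± 0.317 CPM in the same order (SD, n = 3). A gene is called where edgeR's quasi-likelihood test over all genes gave a Benjamini-Hochberg adjusted p below 0.05. Markers of shoot (6 genes) and root (7 genes) were all detected in every library.

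Gene models came from RefSeq (assembly TAIR10.1), where SZF2 is listed as CZF1, ZAT10 as STZ, ZAT12 as RHL41, AZF1 as ZF1 and AZF2 as ZF2. SZF1 (chr3:20776220-20778952, plus strand) and SZF2 (chr2:16771997-16774734, plus strand) have 2 exons and encode 647 and 597 residues, with a shorter form of 580 residues for SZF1. ZAT10 (chr1:9648021-9649323, minus strand), ZAT12 (chr5:24102814-24103794, plus strand), ZAT6 (chr5:1216058-1217362, minus strand), ZAT11 (chr2:15706285-15707224, plus strand) and AZF1 (chr5:26918765-26920179, minus strand) are single-exon genes. They encode 227, 162, 238, 178 and 245 residues in that order. AZF2 (chr3:6802903-6804296, minus strand) encodes 273 residues and has 2 annotated transcripts. Rows of the count table that span over 100 kb overlap SZF1 (3 rows), SZF2 (6 rows), ZAT10 (1 row) and ZAT11 (8 rows), so that a read there may have been assigned to either.

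The DNA that encodes the first QALGGH signature shows what the 6 C2H2 genes have in common. Each line gives these 18 coding bases from TAIR10.1, 5′ to 3′ on the gene's own strand, with the 12 bases that all 6 genes share in capitals.
ZAT10 (chr1:9648692-9648709, minus strand): CAaGCtcTcGGtGGtCAC
ZAT12 (chr5:24103226-24103243, plus strand): CAaGCctTaGGaGGtCAC
ZAT6 (chr5:1216717-1216734, minus strand): CAgGCtcTtGGtGGaCAC
ZAT11 (chr2:15706631-15706648, plus strand): CAaGCccTtGGtGGcCAC
AZF1 (chr5:26919535-26919552, minus strand): CAaGCctTaGGtGGaCAC
AZF2 (chr3:6803743-6803760, minus strand): CAgGCttTaGGcGGtCAC

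Each of the 6 C2H2 genes carries 2 such signatures, and 27 of 27415 protein-coding genes in all carry at least 2. SZF1 and SZF2 each hold 1 tandem CCCH motif, found in 11 genes. The DLNxxP form of the EAR motif was present in the translated coding sequences of ZAT10, ZAT6 and ZAT11, and in 0.682% of all protein-coding genes. The looser LxLxL form was present in ZAT12, ZAT6, ZAT11, AZF1 and AZF2, and in 27.1% of all. By global alignment SZF1 and SZF2 were 61.9% identical and ZAT10 and ZAT6 68.4%, while AZF1 and AZF2 were 37.6% identical. The longest stretch of identical transcript sequence between any pair of the 8 genes was 39 bases (AZF1 and AZF2), followed by 36 bases for SZF1 and SZF2 and 26 bases for ZAT10 and ZAT6.

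The region just before the gene start was compared because genes that move together may share short elements there. A window of 80 bases is shown for SZF1 with SZF2 and for ZAT10 with ZAT6, the pairs with the highest protein identity. Each window was placed to show an element that both genes of the pair carry. The bases were read from TAIR10.1 on the gene's own strand. Capitals mark TTGAC or its reverse complement GTCAA, the core of the W-box that WRKY factors bind, in the windows of SZF1 and SZF2, which end at the base before the annotated start. In the windows of ZAT10 and ZAT6, which end 31 bases before it, capitals mark GGCGGC, the reverse complement of GCCGCC, the GCC box that ERF factors bind.
SZF1 (chr3:20776140-20776219, plus strand): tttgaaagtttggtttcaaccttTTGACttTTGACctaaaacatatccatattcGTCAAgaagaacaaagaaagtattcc
SZF2 (chr2:16771917-16771996, plus strand): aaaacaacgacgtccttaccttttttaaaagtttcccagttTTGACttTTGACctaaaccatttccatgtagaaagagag
ZAT10 (chr1:9649354-9649433, minus strand): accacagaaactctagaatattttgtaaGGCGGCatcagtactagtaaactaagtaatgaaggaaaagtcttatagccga
ZAT6 (chr5:1217393-1217472, minus strand): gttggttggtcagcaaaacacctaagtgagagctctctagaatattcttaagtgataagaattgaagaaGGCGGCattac

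SZF1 and SZF2 share an uninterrupted run of 19 bases that holds a pair of TTGAC cores 7 bases apart, counted start to start, on 1 strand. The run begins at position -59 in SZF1 and -41 in SZF2. Such a spaced pair occurred in the 250 bases before the start of 93 of 27443 genes (0.339%), and in none of the other 6 zinc finger genes. The spacing and the strand rule were those seen in SZF1 and SZF2, so this share is a description and no test. No other pair among the 28 shared more than 14 bases, and ZAT10 and ZAT6 shared 12.

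A set of 8 short elements was then searched on both strands of the 250 bases before every annotated start. TTGAC was found before 7 of the 8 genes, all but ZAT6, and before 44.9% of all genes. GCCGCC was found before ZAT10 and ZAT6, and before 1.87% of all genes. CCGAC, the core bound by CBF factors, was found before ZAT10, ZAT6 and AZF2, and before 12% of all genes. GAANNTTC, a heat shock element, was found before ZAT12, ZAT6 and ZAT11, and before 9.55% of all genes. CGCGT, the core of the CAMTA element, was found before ZAT12 only, and before 6.87% of all genes, and its longer form CGCGTT before none of the 8 and before 2.59% of all. ACGTG, the core of the abscisic acid response element, was found before ZAT10 only (22.9% of all genes), and CACGTG before none of the 8 (6.49%). No other element searched holds TTGAC, whereas every CGCGTT holds CGCGT and every CACGTG holds ACGTG. In a window of 1000 bases, a choice made after seeing the data, GCCGCC was still found only before ZAT10 and ZAT6 (8.44% of all genes), TTGAC before all 8 (88.1%) and CGCGTT before SZF1, ZAT12 and AZF2 (8.66%). CCGAC was found there before 3 genes (37.4% of all genes), GAANNTTC before 4 (33.2%), CGCGT before 4 (20.7%), ACGTG before 5 (54.4%) and CACGTG before SZF1, AZF1 and AZF2 (14.8%). These matches describe letters in a window and show no binding.

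**Figure D1:**
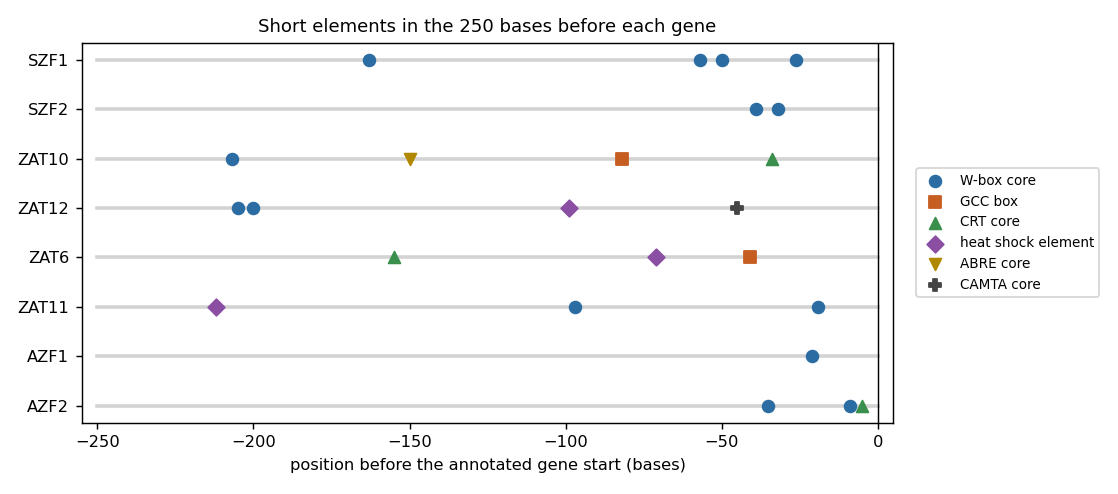
Elements found on either strand in the 250 bases before the annotated start of each of the 8 genes, with position in bases on the x axis (the start at 0) and 1 row per gene. SZF1 and SZF2 each hold a closely spaced pair of W-box cores near the start, and ZAT10 and ZAT6 are the only genes with a GCC box.

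Both SZF genes were lower in the strigolactone lines. SZF1 had 49.4, 54.8 and 54.5 CPM in the AtCXE15-OE libraries, 58.2, 53.5 and 58.8 CPM in the atd14-1 libraries, and 130, 140 and 144 CPM in Col-0 (replicates 1 to 3). SZF2 had 53.1, 53.9 and 55.3 CPM in the AtCXE15-OE libraries, 59, 58.2 and 62.4 CPM in the atd14-1 libraries, and 91, 99.2 and 105 CPM in Col-0. For both genes every library of either line lay below every Col-0 library. The means of SZF1 were 52.9 ± 3 CPM in AtCXE15-OE, 56.8 ± 2.9 CPM in atd14-1 and 138 ± 7.36 CPM in Col-0 (SD, n = 3), which is 2.61-fold lower in AtCXE15-OE and 2.43-fold lower in atd14-1 than in Col-0. The log2 fold changes against Col-0 were -1.39 ± 0.06 (SE) in AtCXE15-OE and -1.28 ± 0.06 in atd14-1 for SZF1, and -0.86 ± 0.06 and -0.72 ± 0.06 for SZF2. SZF1 had the lowest log2 fold change of the 8 genes in both comparisons. In bulk tissue, fewer cells of a type and less RNA per cell cannot be told apart.

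ZAT10 is a transcriptional repressor linked to salt tolerance and a target of stress-activated MAP kinases. It had 47.2, 53.3 and 52.2 CPM in the AtCXE15-OE libraries, 58.4, 63.3 and 63.9 CPM in the atd14-1 libraries, and 91.1, 99.1 and 97.6 CPM in Col-0. Its 3 groups did not overlap, with AtCXE15-OE lowest, atd14-1 between and Col-0 highest. The log2 fold changes against Col-0 were -0.91 ± 0.06 in AtCXE15-OE and -0.63 ± 0.06 in atd14-1. ZAT6, known from phosphate homeostasis and cadmium tolerance, had 12.1, 14.8 and 15.2 CPM in the AtCXE15-OE libraries, 14, 13.2 and 14.3 CPM in the atd14-1 libraries, and 21.9, 21.6 and 22.7 CPM in Col-0. Its values in the lines were intermingled and all lay below Col-0, with log2 fold changes of -0.65 ± 0.10 in AtCXE15-OE and -0.67 ± 0.10 in atd14-1.

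ZAT12, a regulator of responses to reactive oxygen and cold, had 14.4, 17 and 17 CPM in the AtCXE15-OE libraries, 16.7, 17.4 and 16.4 CPM in the atd14-1 libraries, and 19.9, 23.8 and 23.8 CPM in Col-0. Both lines lay below Col-0, but its lowest Col-0 library, replicate 1, was close to them. The log2 fold changes were -0.48 ± 0.10 in AtCXE15-OE and -0.42 ± 0.10 in atd14-1. AZF2, a repressor that responds to abscisic acid, had 11.7, 14.5 and 13.4 CPM in the AtCXE15-OE libraries, 14.5, 13.9 and 14.8 CPM in the atd14-1 libraries, and 18.7, 20.3 and 18.7 CPM in Col-0. Both lines again lay below Col-0 without overlap, and the log2 fold changes were -0.54 ± 0.10 in AtCXE15-OE and -0.41 ± 0.10 in atd14-1.

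ZAT11 and AZF1 were scarcer and less regular. ZAT11, which oxidative stress induces, had 1.55, 0.849 and 1.33 CPM in the AtCXE15-OE libraries, 1.91, 1.35 and 1.21 CPM in the atd14-1 libraries, and 1.96, 1.88 and 3.07 CPM in Col-0, from 46 to 129 counts per library. AtCXE15-OE lay below Col-0, whereas atd14-1 overlapped it, and the log2 fold changes of -0.90 ± 0.30 in AtCXE15-OE and -0.63 ± 0.30 in atd14-1 had SEs several times those of the abundant genes. AZF1, a repressor related to AZF2, had 5.6, 3.15 and 3.81 CPM in the AtCXE15-OE libraries, 3.56, 4.42 and 4.01 CPM in the atd14-1 libraries, and 3.78, 5.66 and 4.38 CPM in Col-0. Its 3 groups overlapped, and its log2 fold changes were -0.14 ± 0.22 in AtCXE15-OE and -0.20 ± 0.22 in atd14-1. The coefficient of variation between libraries of a group was 24.7% to 28.9% for ZAT11 and 10.7% to 30.2% for AZF1, against 2.04% to 7.28% for SZF1, SZF2 and ZAT10.

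**Figure D2:**
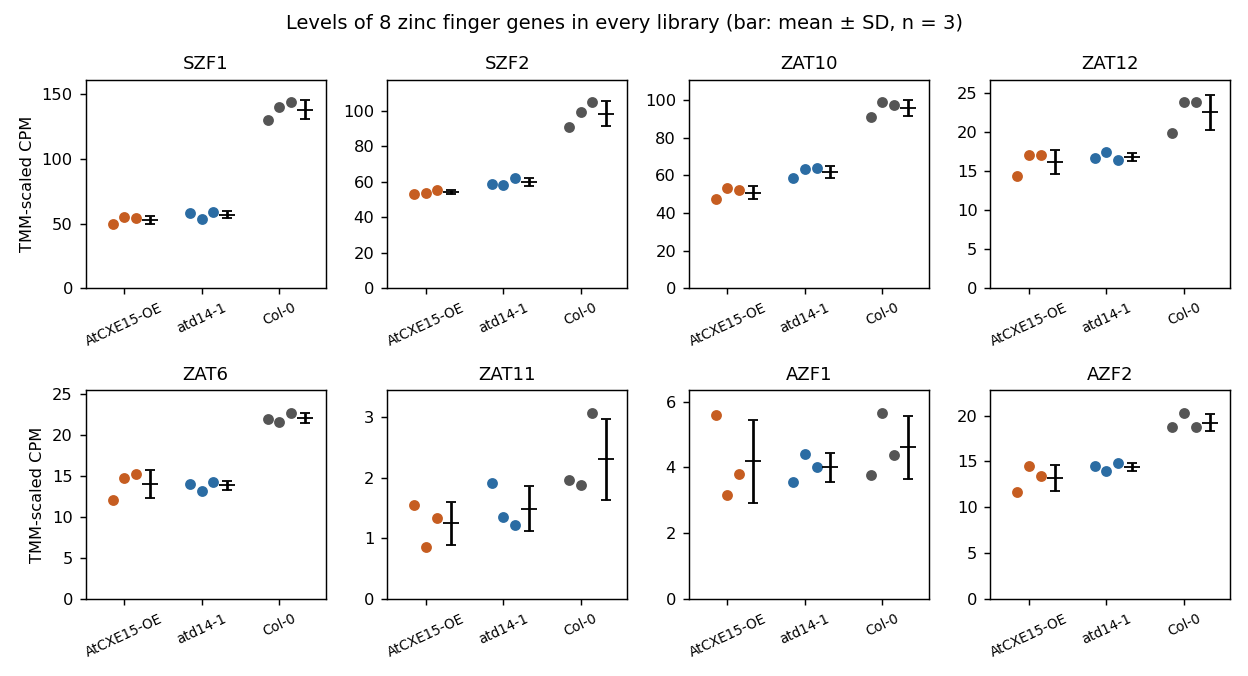
TMM-scaled CPM of each gene (y axis, from 0, with its own scale per panel) in the 3 libraries of AtCXE15-OE, atd14-1 and Col-0 (points, replicates 1 to 3 from left to right), with the mean ± SD beside them. Points of both lines lie below all Col-0 points for SZF1, SZF2, ZAT10, ZAT12, ZAT6 and AZF2, overlap Col-0 for AZF1, and overlap it in atd14-1 for ZAT11.

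Because the 8 genes were selected on these same comparisons with Col-0, their counts there are a description. In AtCXE15-OE against Col-0, 6 of 8 were called, all lower, where 2.27% of all genes tested were called and 1.51% were called lower. In atd14-1 against Col-0, 6 of 8 were called, again all lower, where 11.9% of all genes were called and 6.87% were called lower. ZAT11 and AZF1 were the 2 genes not called in either comparison, and all 8 had log2 fold changes below 0 in both. Ranges over libraries lay wholly below Col-0 for 7 genes in AtCXE15-OE and 6 in atd14-1, as they did for 8.93% and 15.8% of all genes. The median log2 fold change of the 8 genes was -0.76 in AtCXE15-OE and -0.63 in atd14-1, beside medians of 0.004 and 0.006 over all genes. Both comparisons use the same Col-0 libraries, so the values in the lines are not independent of each other. The ZAT12 call in AtCXE15-OE was lost without Col-0 replicate 2 or 3 (-0.44 in both), and the AZF2 call in atd14-1 without atd14-1 replicate 2 (-0.39).

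The whole table held 163 higher and 324 lower calls for AtCXE15-OE set against Col-0, 1084 higher and 1472 lower calls for atd14-1 set against Col-0, and 882 higher and 604 lower calls for AtCXE15-OE set against atd14-1. When libraries were scaled by their totals alone the splits were 220 and 274, 2241 and 968, and 551 and 1060, while the counts of zinc finger genes called stayed at 6, 6 and 1.

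The direct comparison of AtCXE15-OE with atd14-1 played no part in choosing the genes. ZAT10 was lower in AtCXE15-OE, at 50.9 ± 3.25 CPM, than in atd14-1, at 61.9 ± 3.01 CPM (SD, n = 3), and was lower in all 3 libraries than in any atd14-1 library. The log2 fold change was -0.28 (95% interval -0.41 to -0.15, edgeR adjusted p = 0.013). ZAT10 was the only 1 of the 8 genes called, where 6.94% of all genes were called, so that a single call among the 8 says nothing particular about the group. Without atd14-1 replicate 2 or without replicate 3 the ZAT10 call was lost (-0.26 in both, adjusted p = 0.0655 and 0.0623), and over all 17 settings its log2 fold change was -0.33 to -0.23 with adjusted p from 0.00164 to 0.0655.

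SZF2 averaged 54.1 ± 1.11 CPM over the AtCXE15-OE libraries and 59.9 ± 2.22 CPM over those of atd14-1, and its ranges did not overlap, as for 12.3% of all genes in that direction. It did not pass the edgeR test over all genes (-0.15, 95% interval -0.27 to -0.02, adjusted p = 0.172). At an unadjusted p below 0.05 edgeR gave 2 of the 8 genes, ZAT10 and SZF2, where 20.5% of all genes passed. The intervals for the remaining 6 all held 0 and differed in width. For SZF1 the difference was -0.10 (-0.23 to 0.03), for ZAT12 -0.06 (-0.27 to 0.14), for ZAT6 0.02 (-0.19 to 0.23) and for AZF2 -0.12 (-0.33 to 0.08). ZAT11, at -0.27 (-0.92 to 0.38), and AZF1, at 0.06 (-0.41 to 0.53), had the widest intervals of the 8 genes. The direction of ZAT6, ZAT12 and AZF1 changed when single libraries were left out, and that of ZAT6 also when libraries were scaled by totals alone. The median over the 8 genes was -0.11, beside -0.003 over all genes.

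**Figure D3:**
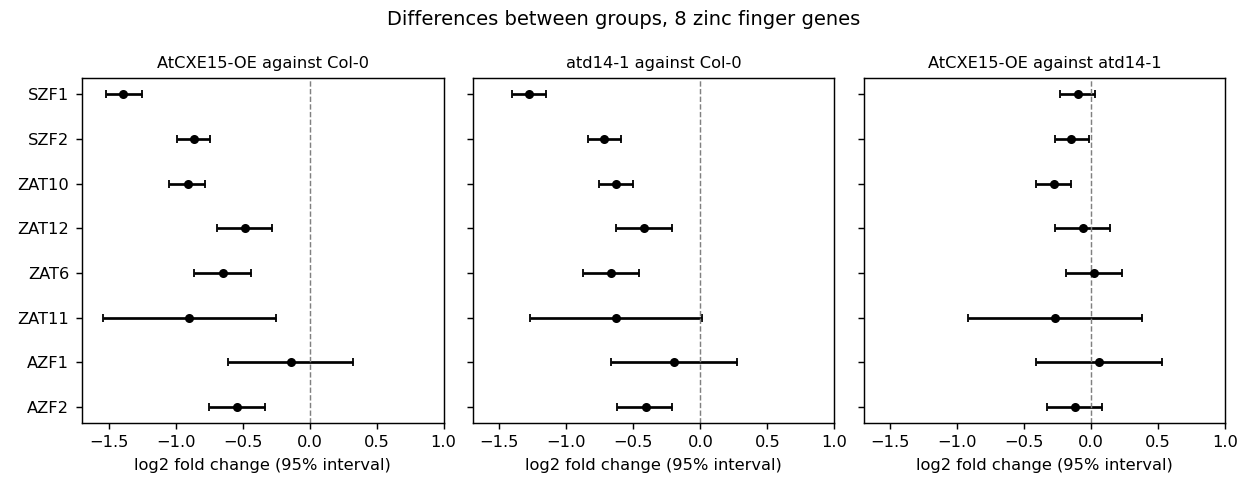
Log2 fold changes of the 8 genes (x axis) with 95% intervals from edgeR, in AtCXE15-OE against Col-0, atd14-1 against Col-0 and AtCXE15-OE against atd14-1. Against Col-0 the points run from -1.39 for SZF1 to -0.14 for AZF1, whereas in the direct comparison all lie between -0.28 and 0.06.

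Ratios of counts within a library do not depend on how libraries are scaled. The ratio of SZF1 to SZF2 was 0.93, 1.02 and 0.984 in AtCXE15-OE, 0.985, 0.92 and 0.943 in atd14-1, and 1.43, 1.41 and 1.37 in Col-0, so that all 6 values of the lines lay below all 3 of Col-0. It restates the unequal fall of SZF1 and SZF2 against Col-0, the comparisons on which the genes were chosen, and is no separate evidence. Divided by the length of each gene, the ratio was 0.998, 1.09 and 1.06 in AtCXE15-OE, 1.06, 0.987 and 1.01 in atd14-1, and 1.53, 1.52 and 1.47 in Col-0, so that levels per kb were close to equal in the lines and SZF1 was the higher in Col-0. The ratio of ZAT10 to ZAT6 was 3.9, 3.61 and 3.43 in AtCXE15-OE, 4.17, 4.81 and 4.47 in atd14-1, and 4.17, 4.59 and 4.29 in Col-0. It was thus lower in AtCXE15-OE than in any library of atd14-1 or Col-0, while atd14-1 and Col-0 overlapped. The ratio of AZF2 to AZF1 was 2.09, 4.61 and 3.51 in AtCXE15-OE, 4.07, 3.14 and 3.69 in atd14-1, and 4.94, 3.58 and 4.27 in Col-0, with all groups overlapping. How often ratios of other gene pairs separate the groups was not counted.

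**Figure D4:**
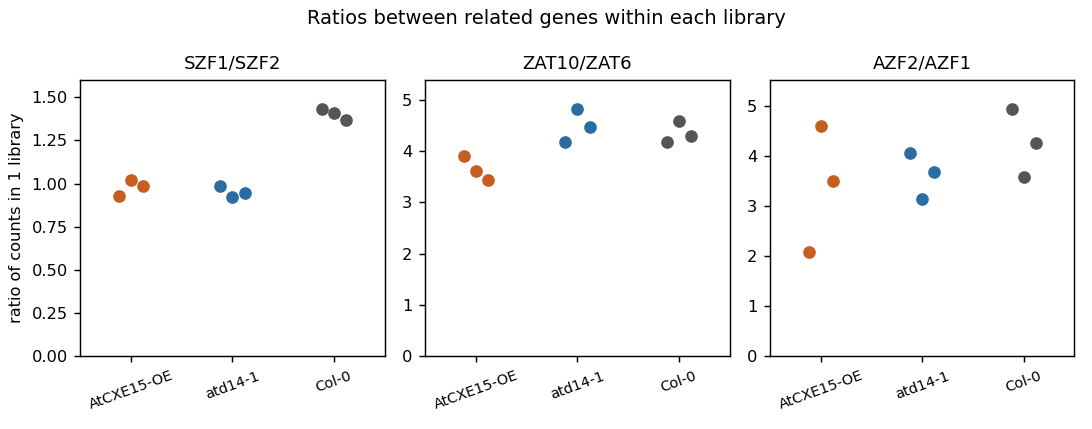
Ratio of counts between related genes in each library (y axis, from 0, no unit), with 1 point per library of AtCXE15-OE, atd14-1 and Col-0. SZF1 over SZF2 is between 0.92 and 1.02 in the lines and between 1.37 and 1.43 in Col-0, and ZAT10 over ZAT6 is lowest in AtCXE15-OE.

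Between genes, levels were compared as TMM-scaled CPM per kb of the gene length given in the table. The order was the same in all 3 groups: ZAT10, SZF1, SZF2, ZAT12, ZAT6, AZF2, AZF1 and ZAT11, from high to low. Mean levels of ZAT10 were 54.6 CPM per kb in AtCXE15-OE, 66.3 in atd14-1 and 103 in Col-0, and those of ZAT11 1.43, 1.72 and 2.65 CPM per kb. SZF1 was at 24.6, 26.4 and 64.2 CPM per kb and SZF2 at 23.4, 25.9 and 42.6 CPM per kb in AtCXE15-OE, atd14-1 and Col-0. The ranges of SZF1 and SZF2 overlapped in both lines and were apart in Col-0. ZAT12 was at 19.7, 20.6 and 27.6, ZAT6 at 14.4, 14.2 and 22.6, AZF2 at 11.4, 12.4 and 16.5, and AZF1 at 3.62, 3.46 and 3.98 CPM per kb in the same groups. ZAT6 and AZF2 overlapped in AtCXE15-OE, and AZF1 and ZAT11 overlapped in Col-0. The order did not change with the exon length of the annotation in place of the table's length.

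The order of the libraries within a group was not used to choose the genes, and it was largely the same for several of them. In AtCXE15-OE, replicate 1 held the lowest level of SZF1, SZF2, ZAT10, ZAT12, ZAT6 and AZF2, 6 of the 8, where 38.8% of all genes were lowest in that library. ZAT11 and AZF1 were highest in it. In atd14-1, replicate 3 held the highest level of 5 genes and replicate 2 the lowest of 4, as they did for 34.2% and 32% of all genes. In Col-0, replicate 1 held the lowest level of 6 genes, where 31.9% of all genes were lowest there, and replicate 3 the lowest of 0, where 35.4% of all genes were lowest.

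Within the group, SZF2 lay closest to the mean profile of the 8 genes over the 9 libraries, with a root mean square difference of 0.065 on the log2 scale. ZAT10 (0.110), ZAT6 (0.115), ZAT12 (0.135) and AZF2 (0.139) followed, and ZAT11 (0.293), SZF1 (0.316) and AZF1 (0.339) lay farthest. Each of the 8 genes is itself part of that mean. Outside the group, the 6 genes with a symbol that were nearest to that mean profile were RDUF2 (0.069), ATL2 (0.086), ERF4 (0.089), SRC2 (0.091), RDUF1 (0.097) and NDR1 (0.099). The 8 genes were chosen for levels lower than in Col-0, so genes picked as near their mean are highest in Col-0 by construction. RDUF2 and RDUF1 encode RING ubiquitin ligases linked to drought responses, and RDUF2 was at 38 ± 1.74 CPM in AtCXE15-OE, 44 ± 1.35 CPM in atd14-1 and 64.7 ± 3.46 CPM in Col-0. ERF4, an EAR-type repressor of the ethylene response factor family, was at 55.6 ± 0.921 CPM in AtCXE15-OE, 61.4 ± 4.06 CPM in atd14-1 and 90.5 ± 9.45 CPM in Col-0. NDR1, a component of disease resistance, was at 6.75 ± 0.0872, 7.16 ± 0.761 and 10.5 ± 0.307 CPM in the same groups.

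Relatives of the 8 genes were examined next, with lists written with earlier results of these data known. By symbol only AZF3 and ZAT7 of 12 other C2H2 genes listed could be matched, so the class was also taken from the coding sequence, which gave 21 other genes with at least 2 QALGGH signatures, 15 of them tested. None of the 15 was called in AtCXE15-OE against Col-0 by edgeR, DESeq2 or limma-voom (median log2 fold change -0.08). There, 3 had an unadjusted edgeR p below 0.05, where 12.9% of all genes passed. In atd14-1 against Col-0, 1 of the 15, ZAT7, was called (median -0.07), where 11.9% of all genes were called. ZAT7 had 33, 22 and 41 counts in AtCXE15-OE, 16, 15 and 22 counts in atd14-1, and 46, 81 and 71 counts in Col-0. It was lower in atd14-1 (-2.07 ± 0.40, edgeR adjusted p = 0.00346) and had -1.28 ± 0.38 in AtCXE15-OE (adjusted p = 0.12); reads may be split between it and its close neighbour ZAT8. AZF3, the relative of AZF1 and AZF2, had log2 fold changes of -0.08 ± 0.13 in AtCXE15-OE and -0.22 ± 0.13 in atd14-1, neither of them called. ZAT17 was listed at 0 in 5 libraries, among them all 3 of atd14-1, and at 67 to 85 counts in the other 4, so its fold change is not given.

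Of the 8 other tandem CCCH genes matched by symbol, TZF9 fell in AtCXE15-OE, to 32.8 ± 0.94 CPM against 41.2 ± 1.17 CPM in Col-0 (-0.33 ± 0.06, edgeR adjusted p = 0.0113), and did not pass when Col-0 replicate 1 was left out (adjusted p = 0.0554). In atd14-1, every TZF9 library was also below Col-0 (-0.20 ± 0.06, edgeR adjusted p = 0.0568). TZF9 was called there in 2 of 17 settings, DESeq2 (0.0353) and overlapping loci summed (0.0435). TZF5, named after its values were seen, lay below Col-0 in AtCXE15-OE (-0.37 ± 0.09, edgeR adjusted p = 0.0605). TZF5 was called there with DESeq2 (0.0161) and overlapping loci summed (0.0379), and had -0.02 ± 0.09 in atd14-1. TZF2 and TZF3, which respond to jasmonate and abscisic acid, passed the test in atd14-1, where both rose. TZF2 was at 18.7 ± 0.135 CPM in atd14-1 and 13.9 ± 0.999 CPM in Col-0 (0.43 ± 0.09, adjusted p = 0.00738), and TZF3 at 51.5 ± 0.515 CPM in atd14-1 and 43.4 ± 1.76 CPM in Col-0 (0.24 ± 0.07, edgeR adjusted p = 0.0277). In AtCXE15-OE, TZF2 was at 17.9 ± 1.61 CPM, with all 3 libraries above Col-0 (0.36 ± 0.09, edgeR adjusted p = 0.0621); it was called there with DESeq2 (adjusted p = 0.0186), with libraries scaled by totals alone (0.0387) and with overlapping loci summed (0.048), over a range of 0.0186 to 0.212 in all settings. The TZF3 call was lost when Col-0 replicate 1 or 2 or any single atd14-1 library was left out (adjusted p up to 0.114). The median of the list, with TZF1 among its 8 genes, was -0.16 in AtCXE15-OE and 0.16 in atd14-1. TZF1 held 2 counts in each of Col-0 replicates 2 and 3, against 3251 in replicate 1 and 2144 to 4053 in the lines. The fold change of TZF1 is therefore not given, but it did enter both list medians. The medians were not recomputed without TZF1, so no direction of the list is read from them.

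Genes that act before and beside the zinc finger genes were counted in the same way. A list of upstream factors held 13 genes: MEKK1, MKK2, MKK4, MKK5, MKK9, MPK3, MPK4 and MPK6 of the MAP kinase cascade, CAMTA1, CAMTA2 and CAMTA3, the kinase gene OXI1 and the heat shock factor gene HSFA4A. CAMTA4, CAMTA5 and CAMTA6 were listed but not matched by symbol. MKK9, a MAP kinase kinase, was the only 1 of the 13 called against Col-0, and it fell in both lines: to 21.3 ± 1.03 CPM in AtCXE15-OE (-0.46 ± 0.08, edgeR adjusted p = 0.0052) and to 24 ± 1.73 CPM in atd14-1 (-0.29 ± 0.08, adjusted p = 0.0267), against 29.3 ± 1.63 CPM in Col-0. The atd14-1 call of MKK9 was lost when libraries were scaled by totals alone and in 4 of the 6 fits with 1 library left out. With overlapping loci summed, 2 of the list were called in atd14-1, 1 higher and 1 lower. At an unadjusted edgeR p below 0.05 there were 6 of the 13 in AtCXE15-OE, with MKK5, MKK9, MPK3, OXI1 and HSFA4A below Col-0 and CAMTA1 above it, and 4 in atd14-1, with MKK4, MKK5, MKK9 and MPK3 below Col-0, where 12.9% and 24.1% of all genes passed. The median of this list was -0.07 in AtCXE15-OE and -0.09 in atd14-1. None of the 8 corepressor genes that EAR motifs recruit, such as TPL, was called in any of the 3 comparisons by edgeR, DESeq2 or limma-voom. In atd14-1 against Col-0, however, edgeR called 2 of them higher when libraries were scaled by totals alone, and 1 higher with upper-quartile factors, without Col-0 replicate 2 or with overlapping loci summed. An unadjusted edgeR p below 0.05 was given to 2 of them in AtCXE15-OE and 1 in atd14-1, all higher than in Col-0. It was given to 0 in AtCXE15-OE against atd14-1. The shares of all genes in these comparisons were 12.9%, 24.1% and 20.5%. The list medians were 0.01 in AtCXE15-OE and 0.06 in atd14-1 against Col-0.

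Among 16 tested genes that ZAT proteins are known to affect or that handle reactive oxygen, 2 were called in AtCXE15-OE. Both were lower, the cold regulators CBF1 and CBF2. CBF2 was at 7.09 ± 0.725 CPM in AtCXE15-OE, 6.43 ± 1.5 CPM in atd14-1 and 14.5 ± 1.28 CPM in Col-0, and was called lower in both lines (-1.03 ± 0.16 and -1.17 ± 0.16, edgeR adjusted p = 0.0028 and 0.000231). CBF1 had -0.85 ± 0.19 in AtCXE15-OE (adjusted p = 0.0277), a call that did not hold in 5 of the 6 fits with 1 library left out (adjusted p up to 0.134), and -1.12 ± 0.19 in atd14-1 (edgeR adjusted p = 0.00118). In atd14-1 the catalase gene CAT2 also fell (-0.41 ± 0.06, adjusted p = 0.000252), and the superoxide dismutase gene CSD1 and the NADPH oxidase gene RBOHD rose (0.41 ± 0.10 and 0.21 ± 0.05, edgeR adjusted p = 0.0175 and 0.0173), the last 2 named after their values were seen. The CSD1 call was lost without Col-0 replicate 1 or atd14-1 replicate 3, and the RBOHD call without Col-0 replicate 1, atd14-1 replicate 1 or atd14-1 replicate 3 (adjusted p up to 0.0932 and 0.0807). At an unadjusted edgeR p below 0.05 there were 9 of the 16 in AtCXE15-OE and 9 in atd14-1, above Col-0 as well as below. The shares of all genes were 12.9% and 24.1%, and the list medians were -0.04 and -0.06.

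A list of 21 other genes of the rapid stress response had 18 members called lower in AtCXE15-OE and 18 in atd14-1, and the same 3 not called in either, WRKY18, MYB44 and CAF1b. Those 3 also lay wholly below Col-0 in both lines, as did 8.93% of all genes in AtCXE15-OE and 15.8% in atd14-1. An unadjusted edgeR p below 0.05 was given to 20 of the 21 in AtCXE15-OE and 19 in atd14-1, where 12.9% and 24.1% of all genes passed. This list was put together with the low values of several of its genes in these libraries known, so its direction is no independent evidence. Its median log2 fold change was -0.76 in AtCXE15-OE and -0.75 in atd14-1, beside -0.76 and -0.63 for the 8 zinc finger genes. CAF1a, a deadenylase gene of messenger RNA turnover, was at 66.9 ± 6.02 CPM in AtCXE15-OE, 73.4 ± 5.73 CPM in atd14-1 and 124 ± 2.77 CPM in Col-0, and WRKY33, a defence regulator of the family that binds the W-box, at 67.5 ± 1.87, 66.8 ± 5.1 and 115 ± 5.85 CPM in the same groups. In the direct comparison of the lines none of the 21 genes was called by edgeR, DESeq2 or limma-voom, and 4 had an unadjusted edgeR p below 0.05; without atd14-1 replicate 2 edgeR called 1 of them higher in AtCXE15-OE. CAF1b counts were uneven within atd14-1, at 70, 775 and 42.

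**Figure D5:**
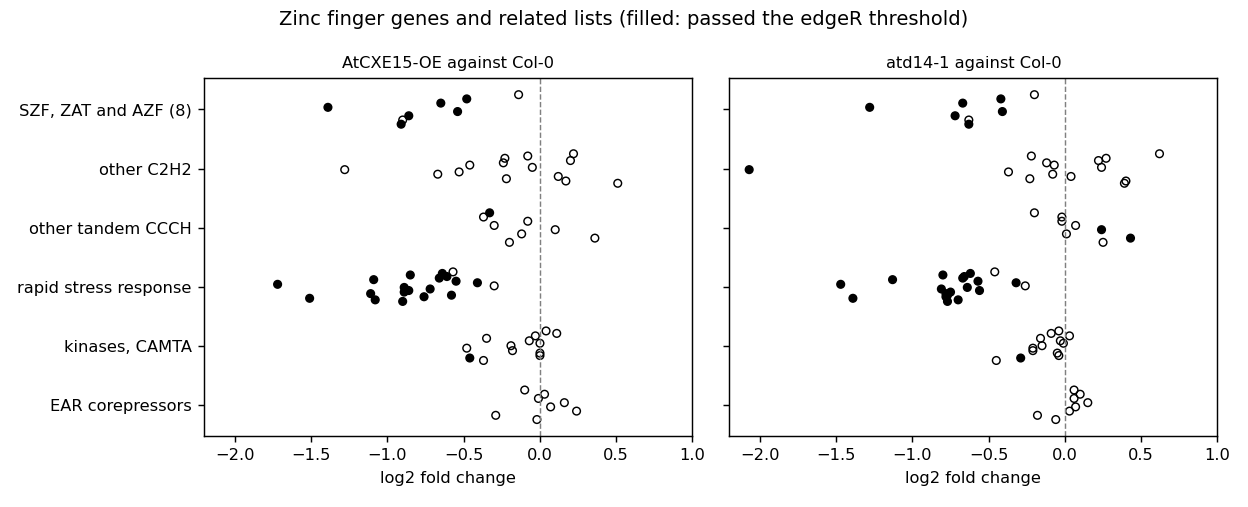
Log2 fold changes (x axis) against Col-0 in AtCXE15-OE and in atd14-1 for the 8 zinc finger genes and 5 lists, with 1 point per gene, filled where edgeR called it (vertical spread within a list only separates points; TZF1, ZAT17 and CAF1b are not drawn). The zinc finger genes and the rapid stress response genes lie mostly below 0. The other C2H2, other tandem CCCH, upstream kinase, CAMTA and HSFA4A (drawn as kinases, CAMTA), and corepressor genes lie mostly around 0. Among these, ZAT7 lies at -1.28 in AtCXE15-OE and -2.07 in atd14-1, and OXI1 and MKK9 at -0.48 and -0.46 in AtCXE15-OE.

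Markers of shoot and root were set beside these values. Summed shoot markers were at 13589 to 18262 CPM in AtCXE15-OE, 13045 to 16416 CPM in atd14-1 and 17248 to 17949 CPM in Col-0, and none of the 6 genes was at 0 in any library. Of them edgeR called 0 in AtCXE15-OE against Col-0 (1 at an unadjusted p below 0.05, beside 12.9% of all genes). In atd14-1 against Col-0, 4 were called lower, where 6.87% of all genes were called lower. RBCS1A was uneven between libraries of the lines, and without it the sums were 11858 to 13425 CPM in AtCXE15-OE, 9310 to 9894 CPM in atd14-1 and 13051 to 13726 CPM in Col-0. Summed root markers were at 3911 to 4684 CPM in AtCXE15-OE, 4312 to 4678 CPM in atd14-1 and 4789 to 5044 CPM in Col-0, with none of the 7 genes at 0, 0 called in AtCXE15-OE against Col-0 (2 at an unadjusted p below 0.05) and 1, TIP2;3, called higher in atd14-1 (0.52 ± 0.11, edgeR adjusted p = 0.00835). BGLU23 made up most of each root sum, and without it the sums were 106 to 111 CPM in AtCXE15-OE, 121 to 131 CPM in atd14-1 and 114 to 128 CPM in Col-0, with a median log2 fold change over all 7 genes of -0.15 in AtCXE15-OE and 0.04 in atd14-1. Their part in the lower zinc finger levels was not tested.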

How the data were processed

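Polyadenylated RNA of whole seedlings was fragmented and primed with random hexamers, without marking the strand, per the labels' protocols. Per the submitters' processing notes, the build TAIR10 and the tools HISAT2, SAMtools 0.1.18, Picard and DESeq 1.39.0 were used in roles not stated. How reads were counted, by strand or when they matched several places, is not given in the sources used here. Raw counts per gene, not normalized, are what the authors deposited, with 1 column per library.

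The 8 genes, the lists and the tests were chosen with earlier results of these data known. The test was edgeR 4.0.16 under R 4.3.3 (quasi-likelihood test with robust dispersions, TMM, filterByExpr by group, group means over all 9 libraries), with Benjamini-Hochberg adjustment over 21425 genes and a threshold of 0.05. The SE is the absolute log2 fold change divided by the square root of F, and intervals use it. The procedure was tested on simulated counts. Libraries of a group correlated at 0.9729 to 0.9781 (log2 CPM), and no pair matched within counting noise (chi-square over its degrees of freedom was at least 24.33). Replicate numbers did not pair libraries.

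Named genes were all 8 genes, CXE15 and D14, the genes of the other C2H2 and CCCH lists called against Col-0, up to 3 called genes with the smallest adjusted p per comparison with Col-0 of each other list, and the 6 with the nearest profile (prior count 2). Others are said to be named after their values were seen, or stand for uneven counts or as relatives. Promoters and coding sequences were read from RefSeq TAIR10.1, whose chromosome lengths hold all coordinates of the table; coding motifs were found in translations made with Biopython 1.88. Of the deposited rows, 72 span over 100 kb, and apart from those no row overlaps any of the 8 genes. Alternatives were other size factors, other filters, DESeq2 1.42.0, limma-voom (limma 3.58.1), a replicate block, only the 6 libraries compared, overlapping loci summed, and leaving out each library.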

Additional observations from a re-analysis of the deposited data

Results flagged for a closer look

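Several genes had effects that differed between the lines by the direct test of AtCXE15-OE against atd14-1. ZAT10 was lower in AtCXE15-OE than in atd14-1 (log2 fold change -0.28, edgeR adjusted p = 0.013), while both lines lay below Col-0. The difference was 8.08 for CXE15 and 2.72 for D14, the genes that define the lines. CAT2 averaged 1318 ± 63 CPM over the AtCXE15-OE libraries and 1084 ± 52.2 CPM over those of atd14-1 (SD, n = 3), 0.28 on the log2 scale (edgeR adjusted p = 0.00787), and the call was lost without atd14-1 replicate 2 (adjusted p = 0.053). RBOHD had 104 ± 5.71 CPM in AtCXE15-OE, against 127 ± 4.41 CPM in atd14-1 (-0.29, edgeR adjusted p = 0.0044), a call kept in all 17 settings. TZF5, a tandem CCCH gene, had 19 ± 1.23 CPM in AtCXE15-OE, against 24.2 ± 2.79 CPM in atd14-1 (-0.35, edgeR adjusted p = 0.0376), called in 10 of 17 settings and lost in 5 of the 6 fits that left out 1 library. CAMTA1, a calmodulin-binding transcription activator, had 81.9 ± 4.09 CPM in AtCXE15-OE, against 71.2 ± 1.74 CPM in atd14-1 (0.20, edgeR adjusted p = 0.0282), called in 11 of 17 settings and lost without AtCXE15-OE replicate 3 or without any single atd14-1 library. TZF5, CAMTA1 and RBOHD were named after their values were seen.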

How the results depend on the processing

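Of the 8 zinc finger genes, the number called against Col-0 was 6 in both lines under other size factors, other filters, DESeq2 and limma-voom. It was also 6 with overlapping loci summed, which left the counts of the 8 genes unchanged, and 5 to 6 when 1 library was left out. In the direct comparison it was 1, and 0 to 1 with 1 library left out. Over all genes, DESeq2 called 827 in AtCXE15-OE against Col-0, where edgeR called 487, and with 1 library left out the counts were 287 to 586 in that comparison, 1704 to 1917 in atd14-1 against Col-0 and 769 to 2216 in AtCXE15-OE against atd14-1, with 2216 without AtCXE15-OE replicate 1 and 769 to 913 without any other library; the cause was not tested. Replicate numbers did not pair libraries (same-number residual correlations of -0.049 to 0.043), and with a replicate block 6, 6 and 1 zinc finger genes were called and 461, 2576 and 1561 genes in all, with ZAT10 at -0.28 in the direct comparison (edgeR adjusted p = 0.00385).

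Signs turned only for small differences that were not called. With libraries scaled by totals alone, D14 was at 0.0092 in AtCXE15-OE and TZF5 at 0.058 in atd14-1 against Col-0, and ZAT6 was at -0.028 and WRKY33 at -0.037 in the direct comparison, where AZF1 was at -0.026 with limma-voom. With 1 library left out, the log2 fold change of AtCXE15-OE against Col-0 was -0.40 to 0.034 for AZF1 and -0.024 to 0.004 for D14, and that of atd14-1 against Col-0 was -0.09 to 0.072 for TZF5. In the direct comparison it was -0.038 to 0.12 for ZAT6, -0.20 to 0.23 for AZF1, -0.10 to 0.011 for ZAT12, -0.034 to 0.075 for WRKY33, -0.067 to 0.035 for ATL2, -0.04 to 0.25 for CBF2 and -0.15 to 0.00033 for NDR1.

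Summing every set of overlapping rows was not run. The rows over 100 kb would have joined 943 to 1643 rows around SZF1, SZF2, ZAT10 and ZAT11. With those rows kept apart, an alternative chosen after seeing the data, none of the calls on the 8 genes changed. No other row overlaps any of the 8 genes, so their own counts were the same in that fit. It cannot show how reads were divided between the long rows and these genes. ZAT11 and AZF1 had 46 to 245 counts per library, coefficients of variation of 10.7% to 30.2% within groups, and the widest intervals.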
